A study of Capra hircus with 9 samples.

Results

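Goats were fed 1 of 3 diets and the RNA of their rumen epithelium was sequenced. The genes described here are those whose expression in the MC diet alone lay above or below its level in both other diets. Of 11668 genes tested, 2444 met both conditions of the rule. The first was a limma test of MC minus the mean of the LC and HC group means on log2(FPKM + 1) at an adjusted p under 0.05, and the second was that all 3 MC libraries lay outside the range of the other 6. A gene above that range is called a peak (1552 genes) and a gene below it a dip (892 genes). FPKM, fragments scaled to transcript length and to the mapped fragments of the library, is the unit of every level given, and every difference is on the log2(FPKM + 1) scale, which understates the change of genes at low levels. Differences are given ± their standard errors, with p-values from limma adjusted by the Benjamini-Hochberg method. The members were chosen on these values, so their levels and counts are a description.

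The 9 libraries came from rumen epithelium of 4-month-old goats, with 3 libraries each for the LC diet, the MC diet and the HC diet. The sources describe 3 concentrate diets and do not spell out what LC, MC and HC stand for, and these codes are kept as names. The labels name no untreated group and do not say whether the 3 libraries of a diet came from separate animals. Every p-value therefore measures the spread between these samples, which may be technical. The files hold no read counts, so the depth behind each value is unknown. Between 15123 and 16696 genes had a value in a library, and 10880 to 12009 stood at 1 FPKM or above.

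The rumen is lined by a stratified squamous epithelium that absorbs short-chain fatty acids, ammonia and minerals released by microbial fermentation. Its basal cells divide and their daughters move outward through spinous and granular layers, where they make barrier proteins and lipids and then flatten. Fermentable feed is known to stimulate growth of this epithelium, and a growing tissue needs ribosomes, protein folding, polyamines and DNA synthesis.

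The labelled tissue was checked against its markers. KRT5, the keratin of basal cells, stood at 2696, 4046 and 4089 in LC, 3759, 3768 and 4412 in MC and 2928, 4803 and 4092 FPKM in HC, and KRT14, its partner, at 925 to 1623 in LC, 1043 to 1110.3 in MC and 1116 to 1429.6 FPKM in HC. DSP, which encodes desmoplakin of the desmosome, stood at 575 to 842 in LC, 427 to 705 in MC and 509.7 to 804 FPKM in HC. KRT5, KRT14 and DSP passed neither the MC contrast nor HC minus LC. Their log2 differences in the MC contrast were small (0.10 for KRT5, -0.26 for KRT14 and -0.39 for DSP, adjusted p = 0.735, 0.307 and 0.178). TP63, the basal transcription factor and the fourth marker of this check, passed as a dip (log2 difference -0.39 ± 0.11, adjusted p = 0.0208). Markers of other cell types were summed in each library. Fibroblast, endothelial and B and plasma cell markers had 0 genes past the MC test. The 20 smooth muscle markers summed to 3221 FPKM in LC1, 1714 in LC2 and 178 in LC3, to 1657 to 4743 FPKM in MC and to 260 to 353 FPKM in HC. Of 18 tested, 2 were higher in MC past the test and 0 were peaks, with a median difference of 2.32, and the sums of LC1 and LC2 lay within the MC range. In the markers: smooth muscle list 12 genes were higher without LC1 (4 peaks) and 14 without LC3, and 17 were peaks with LC3 alone for LC. The part of muscle RNA in the results below was not tested beyond the covariate fit. The 15 macrophage and dendritic cell markers found in the files summed to 72.8 to 81.7 FPKM in LC, 19.8 to 33.3 FPKM in MC and 41.9 to 54.3 FPKM in HC. Of 5 tested neutrophil markers 3 were lower in MC, 1 was higher and 1 did not pass. The 10 found in the files summed to 4183 to 7667 FPKM in LC, 45.8 to 98.3 FPKM in MC and 58.7 to 107 FPKM in HC. The 3 lower markers, S100A8, S100A9 (LOC102182273) and S100A12, had LC means of 3288, 775.5 and 2247 FPKM. They are also on the list of epithelial host defence, so the sum is not one of neutrophil genes alone. MMP9, the marker that was higher in MC, ranged over 0.755 to 1.80 in LC, 4.50 to 5.75 in MC and 4.004 to 5.21 FPKM in HC (log2 difference 0.71 ± 0.15, adjusted p = 0.00522), with LC lowest and MC and HC overlapping (MC minus HC adjusted p = 0.772). In bulk tissue fewer cells of a type and less RNA per cell cannot be told apart.

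In the contrast 3622 genes passed the test (31% of those tested), 2096 higher in MC (18%) and 1526 lower (13.1%), and 4910 had an unadjusted p under 0.05. Peaks were 13.3% of tested genes and dips 7.64%. Another 1178 genes passed the test while at least 1 MC library lay inside the range of the other 6, and 305 stood apart in all MC libraries without passing. The split between directions rested on the deposited scale: median-of-ratios scaling gave 1238 peaks and 1255 dips, and quantile normalization gave 1332 and 1369. Of the main members 1223 peaks and 889 dips held under the first of these, and 1220 and 859 under the second. No member took the other direction under either scaling. The other alternatives compared the same library values, so a member could not change direction there. With the mean level of the smooth muscle markers as a covariate 1725 members were found (1156 peaks and 569 dips), and of the main ones 1122 peaks and 564 dips were among them. Leaving out 1 library gave 1933 members without MC1 and 3079 without LC1, the lowest and highest of these 9 fits. Without MC1 the test was passed by 2255 genes and without MC2 by 2378.

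The median difference was 0.58 for peaks and -0.64 for dips, against 0.05 for all genes tested. A difference of at least 1 on the log2 scale was reached by 164 peaks and 156 dips, and one of at least 2 by 6 peaks and 12 dips. The MC libraries were separated from the nearest other library by at least 1 for 19 peaks and 17 dips. At the edge of the threshold CNPY4 and N6AMT2 fell just inside (adjusted p = 0.0494 and 0.0498), and TIMM17B and IMPACT just outside (adjusted p = 0.0501 and 0.0504). Peaks were spread over the genome and made up 9.4% to 18.3% of the tested genes on each numbered chromosome.

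The HC minus LC difference comes from the same fit. Its estimate did not enter the MC contrast, but a wide gap between LC and HC widens the range that the MC libraries had to leave. The rule therefore favours genes with a small gap, and the counts below are a description. It passed its test for 25.2% of all tested genes and for 511 of the 2444 members. Of the peaks 1284 (82.7%) did not pass it, 184 were higher in HC and 84 were lower in HC. Of the dips 649 (72.8%) did not pass it, 43 were higher in HC and 200 were lower. LC and HC lay within 0.2 of each other on the log2 scale for 807 peaks and 369 dips. This held for 4505 (38.6%) of all tested genes. A gene that misses the HC minus LC test is not thereby shown to be level between these diets. The HC mean was the nearer one to MC for 863 peaks (55.6%) and 627 dips (70.3%), so the highest mean of most dips was that of LC. When MC minus LC and MC minus HC each had to pass the test, 957 peaks and 561 dips were left.

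**Figure D1:**
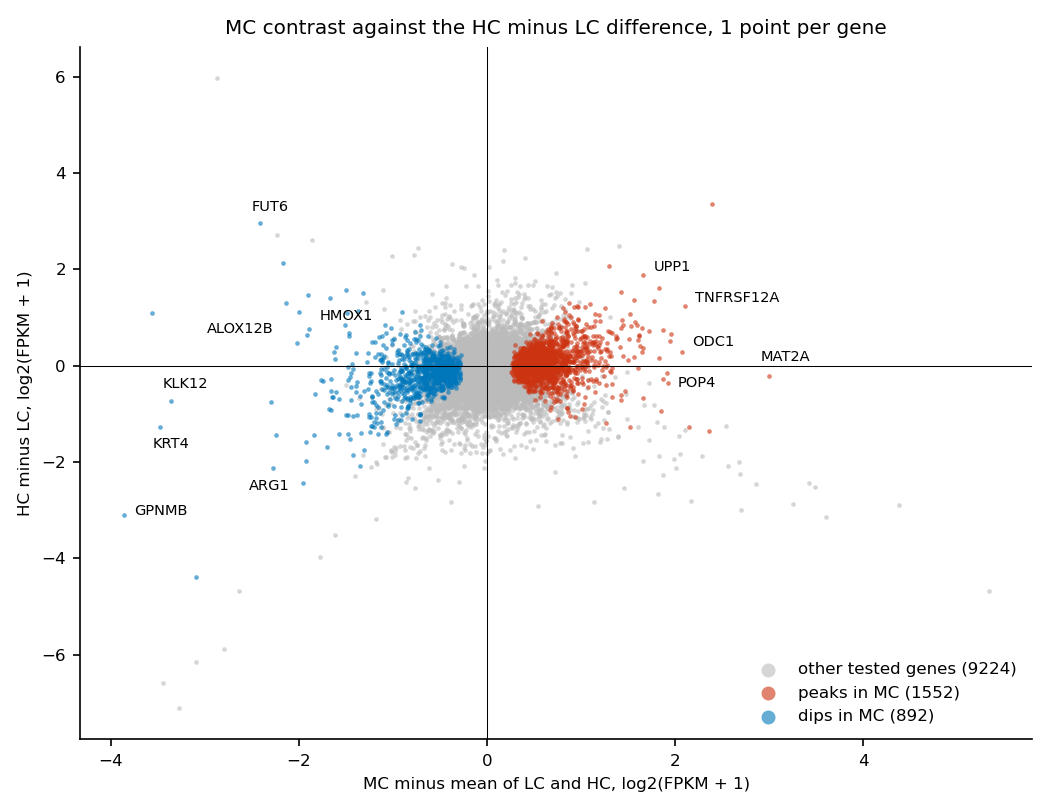
Each point is 1 of the 11668 tested genes, with the MC contrast on the horizontal axis and HC minus LC on the vertical axis, both as log2(FPKM + 1) differences. The 1552 peaks (red) lie to the right and the 892 dips (blue) to the left, and 807 peaks and 369 dips lie within 0.2 of 0 on the vertical axis, with MAT2A farthest right among the peaks and GPNMB farthest left among the dips.

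Gene lists were set beside these shares of 13.3% peaks and 7.64% dips. The highest shares of peaks were in ribosome biogenesis and nucleolus (32 of 46 tested members, 69.6%), DNA replication and S phase (20 of 30, 66.7%), cytosolic heat shock and chaperones (20 of 41, 48.8%), endoplasmic reticulum chaperones and unfolded protein response (18 of 39, 46.2%) and mitosis and G2/M (12 of 26, 46.2%). Among the pathway lists the highest shares of dips were in cell cycle inhibitors and p53 targets (8 of 22, 36.4%) and circadian clock (7 of 21, 33.3%). Among the marker lists, macrophage and dendritic cell had 5 dips of 10 tested (50%) and skeletal muscle 1 of 2 (50%). Among 74 cytosolic ribosomal proteins there were 0 peaks and 1 dip. The lists were chosen with results of these data known, so their counts are no independent evidence of a direction.

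**Figure D2:**
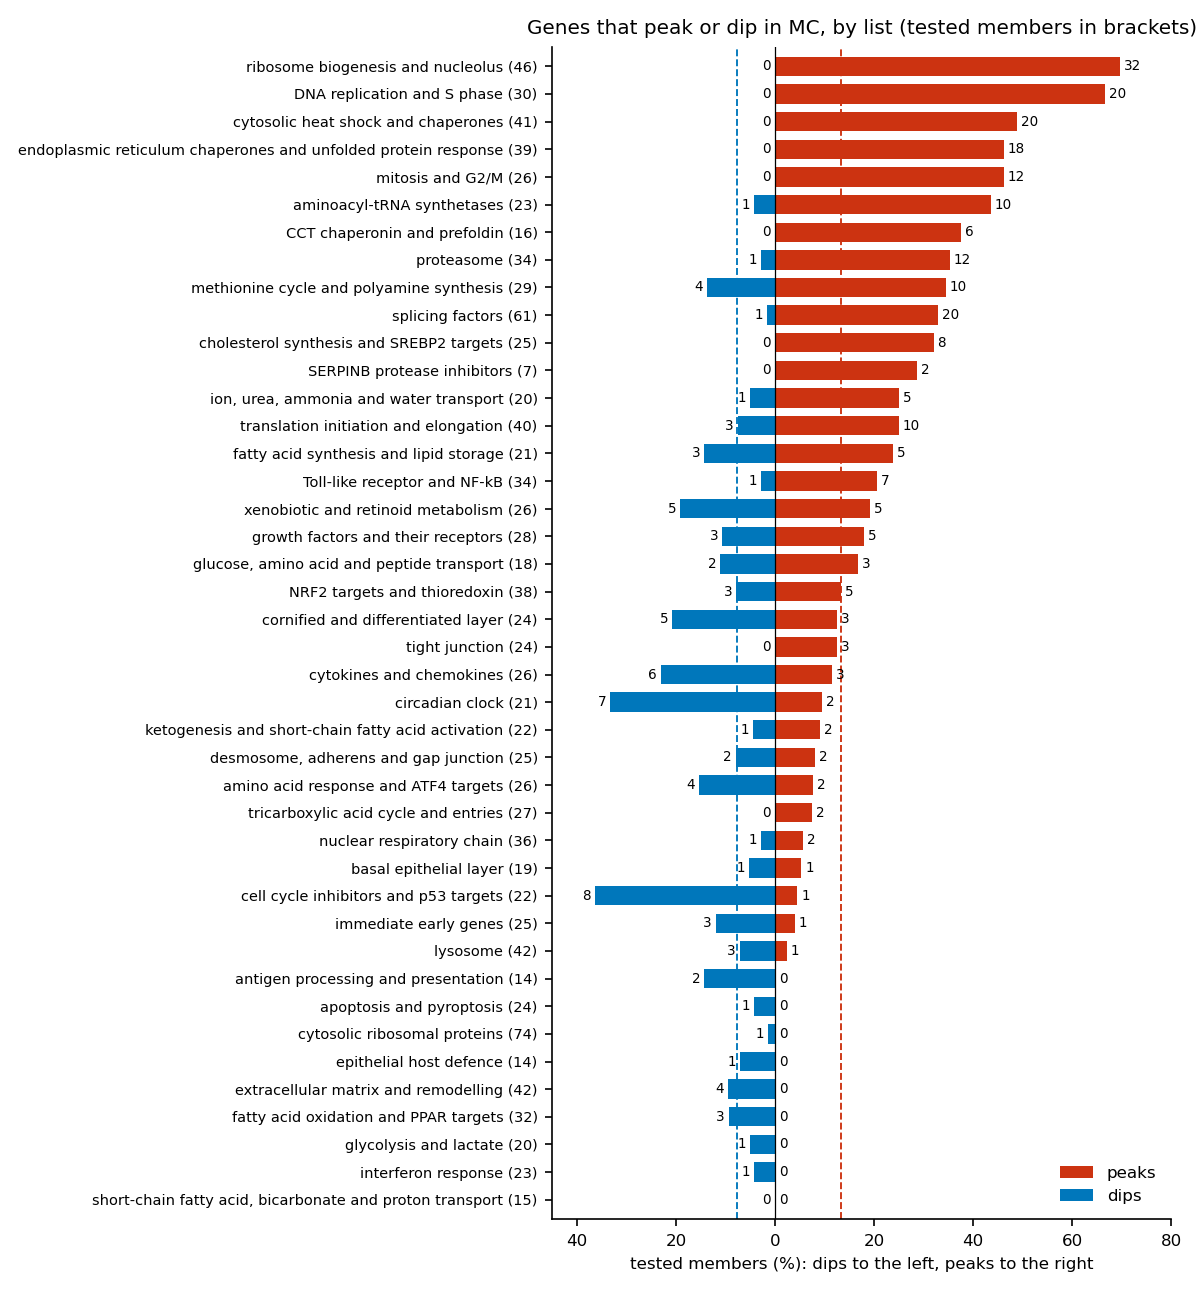
Bars give the percentage of tested members of each pathway list that were peaks (red, to the right) or dips (blue, to the left). Counts stand at the bar ends and tested members in brackets, and the marker lists are not drawn. Dashed lines mark the 13.3% of peaks and 7.64% of dips among all tested genes, and the bar of ribosome biogenesis reaches 69.6% on the right with 0 dips.

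The methionine cycle makes S-adenosylmethionine, the donor of methyl groups, and its decarboxylated form gives the aminopropyl groups of the polyamines spermidine and spermine. MAT2A, which makes S-adenosylmethionine (chromosome 11, 48854892 to 48861358 in the coordinates of the files), held the largest peak among genes with a symbol. It stood at 286, 132 and 131 in LC, 1445, 1142 and 1251 in MC and 186, 132 and 132 FPKM in HC (log2 difference 2.997 ± 0.24, adjusted p = 1.57e-05). The LC and HC libraries together spanned 131 to 286 FPKM, far below every MC library, and HC minus LC was -0.20 ± 0.28. AMD1, which decarboxylates S-adenosylmethionine for polyamine synthesis (chromosome 9, 26538432 to 26560669), stood at 9.74, 9.20 and 11.3 in LC, 51.8, 42.0 and 44.05 in MC and 20.1, 15.6 and 16.03 FPKM in HC (log2 difference 1.73 ± 0.12, adjusted p = 8.13e-06). ODC1, which makes putrescine from ornithine (chromosome 11, 85965522 to 85970119), stood at 3.28, 4.25 and 3.69 in LC, 30.7, 15.2 and 19.4 in MC and 6.60, 4.23 and 3.75 FPKM in HC (log2 difference 2.07 ± 0.21, adjusted p = 7.63e-05), with MC1 the highest of the MC libraries. All LC libraries of AMD1 lay below those of HC, while the LC and HC libraries of ODC1 overlapped. Neither gene had a library of another diet within the MC range.

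Further steps of polyamine synthesis and methionine salvage included peaks and dips. SRM, spermidine synthase, ranged over 7.82 to 9.83 in LC, 16.8 to 19.3 in MC and 7.34 to 11.5 FPKM in HC (log2 difference 0.91 ± 0.13, adjusted p = 4.91e-04). AZIN1, which protects ornithine decarboxylase from degradation, ranged over 14.8 to 17.4 in LC, 26.003 to 31.8 in MC and 16.9 to 19.4 FPKM in HC (log2 difference 0.73 ± 0.10, adjusted p = 4.66e-04). MTAP, which recycles the by-product of polyamine synthesis to methionine, ranged over 8.20 to 10.1 in LC, 15.02 to 18.01 in MC and 7.18 to 10.02 FPKM in HC (log2 difference 0.79 ± 0.12, adjusted p = 6.43e-04). CTH, the last enzyme of the route from homocysteine to cysteine, rose too (log2 difference 0.78 ± 0.14, adjusted p = 0.00164). SAT1, which acetylates spermidine and spermine for breakdown and export, was a dip at 248, 337 and 384 in LC, 172, 161 and 159 in MC and 321, 261 and 309.6 FPKM in HC (log2 difference -0.90 ± 0.15, adjusted p = 0.00125). MTR, which remakes methionine from homocysteine, was also a dip at 16.8 to 19.7 in LC, 9.72 to 12.3 in MC and 14.6 to 18.3 FPKM in HC (log2 difference -0.64 ± 0.11, adjusted p = 0.00153). GNMT, which consumes S-adenosylmethionine to methylate glycine, was a dip at 20.05 to 24.97 in LC, 7.65 to 9.56 in MC and 15.3 to 18.4 FPKM in HC (log2 difference -1.053 ± 0.11, adjusted p = 6.82e-05), but it shares its locus with another gene and its value is uncertain. In all, 12 of the 29 tested members of methionine cycle and polyamine synthesis were higher in MC past the test (10 peaks), 8 were lower (4 dips) and 9 did not pass, with a median of 0.07 that ran from -0.01 to 0.13 over the alternatives. Without LC1 there were 7 dips, and with the smooth muscle covariate 4 genes were lower.

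**Figure D3:**
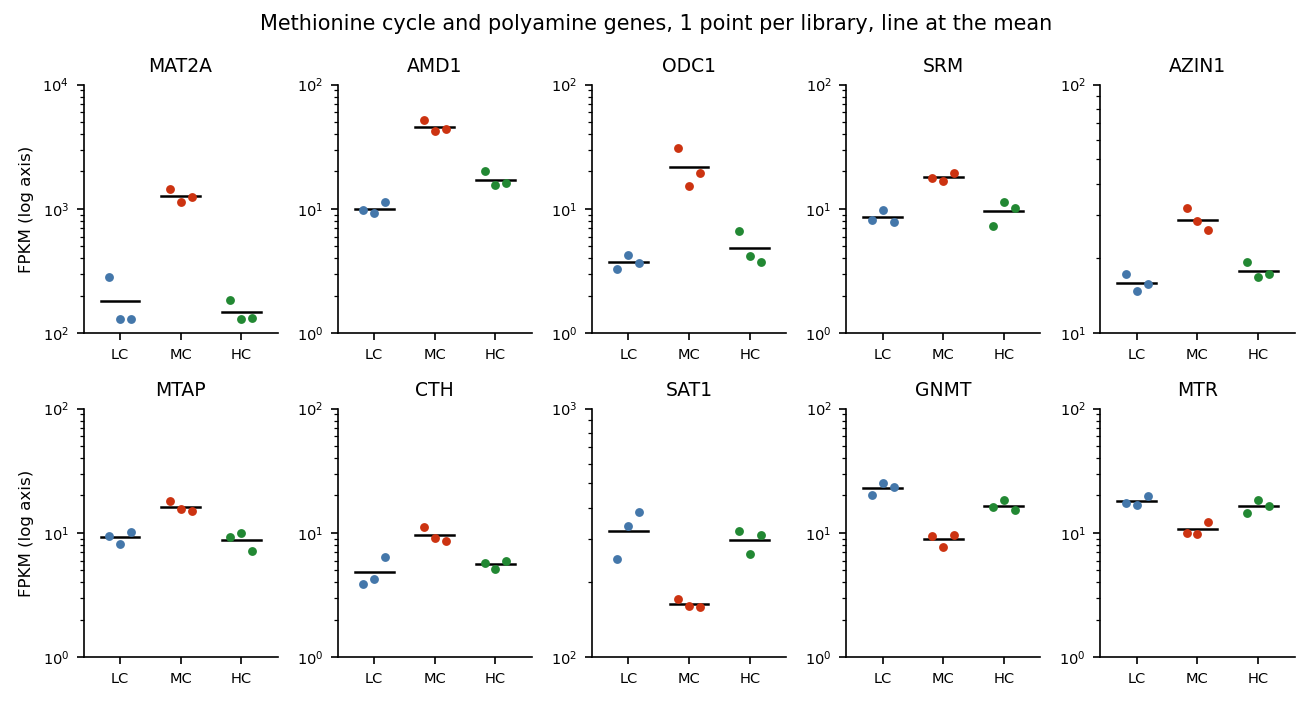
Each panel shows 1 gene of methionine and polyamine metabolism with FPKM on a log axis, 1 point per library and a line at the mean of the 3 libraries of a diet. All MC points of MAT2A, AMD1, ODC1, SRM, AZIN1, MTAP and CTH lie above those of LC and HC, and all MC points of SAT1, GNMT and MTR lie below them.

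Most tested genes that assemble ribosomes in the nucleolus rose in MC. Of the 46 tested members of ribosome biogenesis and nucleolus, 34 were higher past the test (32 peaks), 0 were lower and 12 did not pass, with a median of 0.60 against 0.05 over all genes. LTV1, needed for maturation of the small subunit (chromosome 9, 67794819 to 67811772), stood at 3.25, 3.42 and 3.64 in LC, 11.5, 12.3 and 13.02 in MC and 3.52, 2.59 and 3.84 FPKM in HC (log2 difference 1.60 ± 0.11, adjusted p = 8.13e-06). The LC and HC libraries spanned 2.59 to 3.84 FPKM between them, and the MC libraries were far above that span. DDX21, a nucleolar RNA helicase, stood at 11.3, 12.3 and 14.5 in LC, 31.99, 27.2 and 30.9 in MC and 12.3, 11.4 and 11.8 FPKM in HC (log2 difference 1.23 ± 0.10, adjusted p = 1.57e-05). GAR1, a core protein of the small nucleolar particles that convert uridine to pseudouridine, stood at 8.76, 11.7 and 8.96 in LC, 24.5, 24.05 and 24.2 in MC and 9.09, 10.2 and 9.63 FPKM in HC (log2 difference 1.24 ± 0.11, adjusted p = 1.62e-05). HC minus LC was -0.05 ± 0.13 for LTV1, -0.09 ± 0.12 for DDX21 and -0.01 ± 0.12 for GAR1.

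Other members covered further steps. GNL3, which encodes nucleostemin, ranged over 7.31 to 13.1 in LC, 23.05 to 29.4 in MC and 9.41 to 11.5 FPKM in HC (log2 difference 1.28 ± 0.15, adjusted p = 1.50e-04). NIP7, a factor of large subunit assembly, ranged over 4.27 to 7.16 in LC, 18.3 to 22.6 in MC and 8.43 to 10.8 FPKM in HC (log2 difference 1.38 ± 0.15, adjusted p = 6.91e-05). NOLC1, a nucleolar phosphoprotein, ranged over 11.7 to 16.5 in LC, 33.9 to 46.95 in MC and 15.7 to 22.8 FPKM in HC (log2 difference 1.195 ± 0.15, adjusted p = 2.02e-04). POP4, a subunit of the ribonucleases P and MRP that trim transfer RNA and ribosomal RNA, was not on the list and was among the largest peaks, at 7.13, 10.4 and 7.93 in LC, 30.9, 35.6 and 31.7 in MC and 5.86, 8.61 and 8.18 FPKM in HC (log2 difference 1.92 ± 0.14, adjusted p = 8.13e-06). Over the fits that left out 1 library the list had 27 to 34 peaks, and with the smooth muscle covariate it had 31. The ribosomal proteins themselves gave other counts: of 74 tested cytosolic ribosomal proteins 0 were higher and 1, RPL36, was lower, and their median was -0.19. RPL36 stood at 9735, 13117 and 11271 in LC, 6809.6, 7413 and 8096 in MC and 8189.9, 12893 and 14231 FPKM in HC (log2 difference -0.62 ± 0.20, adjusted p = 0.0362), with HC1 the nearest library to MC, and lost its call in 7 of the 9 fits that left out 1 library (adjusted p = 0.0528 to 0.15). Without LC1 the cytosolic ribosomal proteins had 41 dips among 47 lower genes and with LC3 alone for LC they had 30 dips, while with the smooth muscle covariate their median was 0.08.

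Splicing factors and transfer RNA synthetases held many more peaks than dips, and translation factors held both. SRSF7 and SRSF3 encode SR proteins, which bind exons and recruit the splicing machinery. SRSF7 stood at 32.3, 30.6 and 30.4 in LC, 93.3, 90.5 and 78.02 in MC and 43.3, 41.2 and 35.8 FPKM in HC (log2 difference 1.28 ± 0.11, adjusted p = 1.57e-05). SRSF3 stood at 34.4, 29.1 and 31.3 in LC, 89.5, 71.3 and 69.8 in MC and 34.3, 28.1 and 25.6 FPKM in HC (log2 difference 1.31 ± 0.13, adjusted p = 3.87e-05). SNRPD1, a core protein of the spliceosomal particles, ranged over 29.3 to 40.7 in LC, 93.4 to 108 in MC and 36.8 to 53.02 FPKM in HC (log2 difference 1.31 ± 0.15, adjusted p = 8.85e-05). HNRNPL, which represses exons, was a dip at 136 to 141 in LC, 81.9 to 83.5 in MC and 112 to 128 FPKM in HC (log2 difference -0.65 ± 0.11, adjusted p = 0.00104). Of 61 tested splicing factors 23 were higher (20 peaks, 32.8%) and 4 lower (1 dip, 1.6%), with a median of 0.30. Among 23 aminoacyl-tRNA synthetases 12 were higher (10 peaks, 43.5%) and 1 was lower (1 dip, 4.3%), with a median of 0.34. Over all tested genes 13.3% were peaks and 7.64% dips. EEF1E1, a scaffold protein of the complex that holds several of these enzymes, stood at 4.64, 5.31 and 6.21 in LC, 15.7, 16.5 and 14.3 in MC and 7.08, 7.46 and 7.61 FPKM in HC (log2 difference 1.17 ± 0.10, adjusted p = 1.97e-05). YARS, which charges tyrosine, stood at 9.83 to 11.7 in LC, 18.02 to 22.8 in MC and 10.7 to 14.1 FPKM in HC (log2 difference 0.72 ± 0.12, adjusted p = 0.00106). QARS, which charges glutamine, was the dip (log2 difference -0.52 ± 0.14, adjusted p = 0.0171), and it lost its call without MC1 (adjusted p = 0.0832), without MC2 (adjusted p = 0.0733) and with the smooth muscle covariate (adjusted p = 0.195). Of 40 genes of translation initiation and elongation 10 were peaks and 3 dips, with a median of 0.09, and the dips numbered 10 under median-of-ratios scaling and 11 without LC1.

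Protein folding genes were the next large group of peaks. In the cytosol HSPA8, the constitutive member of the Hsp70 family, stood at 247, 315 and 341 in LC, 786, 709.7 and 790.1 in MC and 396, 313 and 385 FPKM in HC (log2 difference 1.21 ± 0.15, adjusted p = 1.51e-04), which made it the most abundant chaperone among the named peaks. HSPH1 and HSPA4, which release nucleotide from Hsp70, were peaks. HSPH1 ranged over 10.4 to 16.7 in LC, 39.2 to 50.7 in MC and 17.5 to 23.1 FPKM in HC (log2 difference 1.38 ± 0.15, adjusted p = 6.73e-05). HSPA4 ranged over 20.97 to 24.5 in LC, 45.4 to 47.8 in MC and 24.8 to 27.8 FPKM in HC (log2 difference 0.88 ± 0.10, adjusted p = 8.39e-05). DNAJA1, an Hsp40 partner, ranged over 37.5 to 48.3 in LC, 102 to 108 in MC and 50.8 to 66.0 FPKM in HC (log2 difference 1.048 ± 0.12, adjusted p = 1.24e-04). The small heat shock protein CRYAB, not on the list, stood at 10.9, 9.87 and 7.96 in LC, 45.7, 43.99 and 37.8 in MC and 18.8, 15.95 and 16.6 FPKM in HC (log2 difference 1.65 ± 0.12, adjusted p = 8.13e-06). HSPB8 stood at 26.8 to 40.8 in LC, 76.4 to 77.7 in MC and 45.2 to 47.6 FPKM in HC (log2 difference 0.95 ± 0.13, adjusted p = 2.82e-04). Of 41 tested members of cytosolic heat shock and chaperones 23 were higher, 20 were peaks and 0 were lower, with a median of 0.41. Higher genes numbered 15 without MC1 and 15 without MC3. In the CCT chaperonin and prefoldin list, which folds actin and tubulin, 6 of 16 were peaks and 0 dips, and the median was 0.39. CCT5 ranged over 39.99 to 49.6 in LC, 107 to 124 in MC and 66.2 to 81.3 FPKM in HC (log2 difference 0.94 ± 0.12, adjusted p = 2.46e-04), and its HC minus LC difference was 0.72 ± 0.14 (adjusted p = 0.00378). That count fell to 1 peak without MC1, and to 3 without MC2, without MC3 or without HC3.

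In the endoplasmic reticulum, where secreted and membrane proteins fold, HSPA5 (chromosome 11, 94574449 to 94578792), the Hsp70 of this compartment and sensor of unfolded protein, stood at 72.7, 100.3 and 94.7 in LC, 255, 257 and 335 in MC and 109, 80.4 and 112 FPKM in HC (log2 difference 1.57 ± 0.16, adjusted p = 5.24e-05). No LC or HC library came near the MC range. MANF, a cofactor of HSPA5, stood at 40.6, 54.3 and 53.6 in LC, 169, 189.8 and 189.5 in MC and 61.1, 65.4 and 90.2 FPKM in HC (log2 difference 1.61 ± 0.15, adjusted p = 2.81e-05). HYOU1 (LOC102173765 in the files), which exchanges nucleotide on HSPA5, ranged over 6.92 to 9.17 in LC, 14.1 to 24.3 in MC and 7.33 to 8.28 FPKM in HC (log2 difference 1.14 ± 0.15, adjusted p = 2.69e-04). DNAJB11, its Hsp40 partner, ranged over 14.9 to 24.6 in LC, 43.6 to 56.9 in MC and 25.3 to 29.2 FPKM in HC (log2 difference 1.01 ± 0.16, adjusted p = 8.11e-04). HSPA5 and HYOU1 had HC minus LC differences of 0.17 ± 0.19 and 0.01 ± 0.17, and that of MANF was 0.53 ± 0.17 (adjusted p = 0.0438). Of 39 tested members of endoplasmic reticulum chaperones and unfolded protein response 18 were higher, all of them peaks, and 0 were lower, with a median of 0.37. The list had 12 to 19 peaks over the fits that left out 1 library.

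Genes of the proteasome, which degrades tagged proteins, included 12 peaks and 1 dip among 34 tested members, with a median of 0.35. PSMA5, of the catalytic core, stood at 66.5, 95.5 and 104 in LC, 192, 179.8 and 179 in MC and 108, 102 and 103 FPKM in HC (log2 difference 0.94 ± 0.14, adjusted p = 6.69e-04). PSMD7, of the regulatory lid, ranged over 36.6 to 42.1 in LC, 65.5 to 68.8 in MC and 42.1 to 46.2 FPKM in HC (log2 difference 0.67 ± 0.10, adjusted p = 6.24e-04). PSMD13, of the same lid, was the dip at 93.3 to 112 in LC, 55.8 to 62.3 in MC and 68.2 to 91.2 FPKM in HC (log2 difference -0.59 ± 0.13, adjusted p = 0.00467). Subunits of a single complex therefore stood on both sides.

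**Figure D4:**
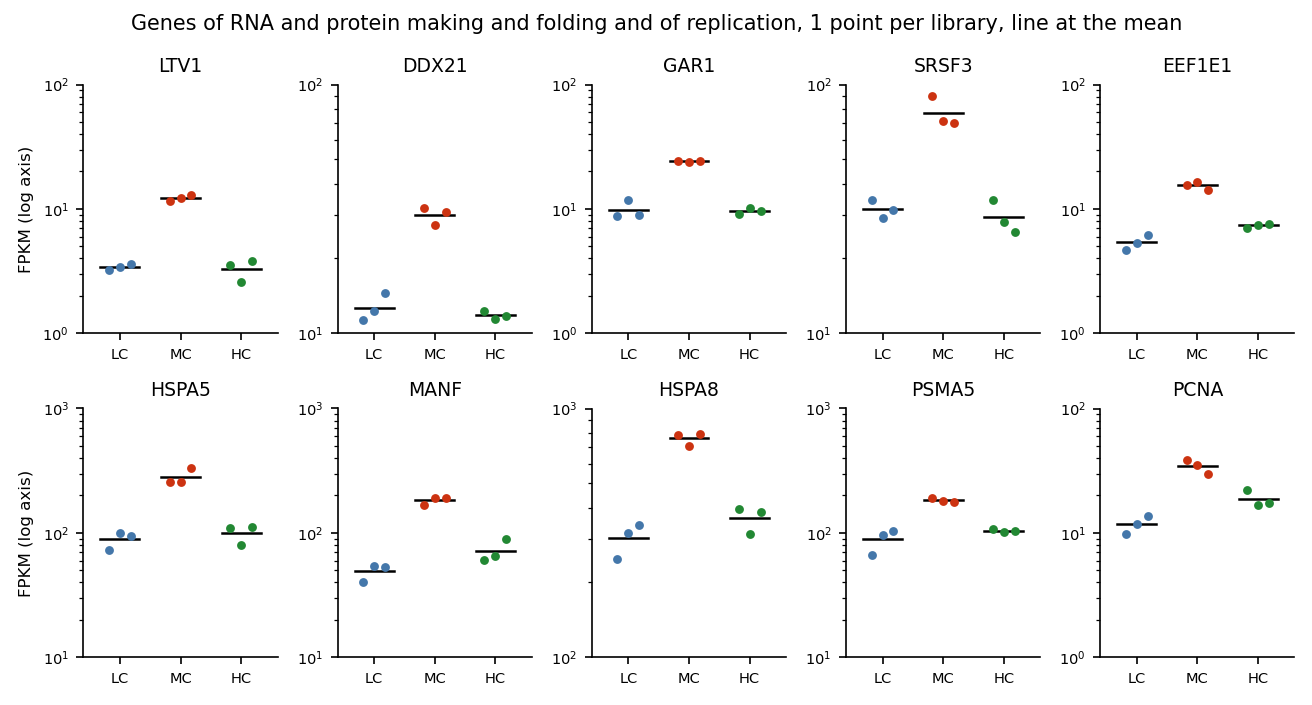
Each panel shows 1 gene with FPKM on a log axis, 1 point per library and a line at the mean of the 3 libraries of a diet. In LTV1, DDX21, GAR1, SRSF3 and HSPA5 the LC and HC points lie at about the same level with MC above both, and in PCNA and EEF1E1 the HC points lie between LC and MC.

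Genes of DNA synthesis included many peaks, and in those named here HC lay between LC and MC. PCNA, the sliding clamp of the replication fork, stood at 9.89, 11.7 and 13.8 in LC, 38.8, 35.1 and 29.8 in MC and 22.1, 16.8 and 17.3 FPKM in HC (log2 difference 1.16 ± 0.13, adjusted p = 1.04e-04). MCM6, a subunit of the replicative helicase, stood at 6.92, 6.99 and 6.34 in LC, 19.3, 18.4 and 17.5 in MC and 13.1, 10.9 and 11.7 FPKM in HC (log2 difference 0.96 ± 0.10, adjusted p = 3.96e-05). UHRF1, which takes part in copying DNA methylation after replication, ranged over 1.85 to 1.99 in LC, 7.47 to 9.97 in MC and 4.37 to 6.13 FPKM in HC (log2 difference 1.195 ± 0.12, adjusted p = 4.52e-05). TYMS, which makes thymidylate, ranged over 2.50 to 3.001 in LC, 8.38 to 10.4 in MC and 3.73 to 5.78 FPKM in HC (log2 difference 1.13 ± 0.13, adjusted p = 9.36e-05). GINS2, of the replisome, ranged over 0.741 to 0.87 in LC, 3.06 to 3.79 in MC and 1.51 to 1.61 FPKM in HC (log2 difference 1.03 ± 0.11, adjusted p = 6.34e-05). HC minus LC was 0.63 ± 0.15 for PCNA (adjusted p = 0.0127), 0.73 ± 0.11 for MCM6 (adjusted p = 7.60e-04) and 1.06 ± 0.14 for UHRF1 (adjusted p = 3.31e-04). Of 30 tested members of DNA replication and S phase 26 were higher in MC, 20 were peaks and 0 were lower, the median was 0.57, and 17 passed the HC minus LC test, with a median HC minus LC difference of 0.49. The HC minus LC median of ribosome biogenesis and nucleolus was 0, with 3 of 46 past that test, and the difference between the lists was not tested. Quantile normalization gave 11 peaks.

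Among 26 tested members of mitosis and G2/M 18 were higher, 12 were peaks and 0 were lower, with a median of 0.51. CCNB1, the cyclin of mitotic entry, stood at 2.41, 2.41 and 3.02 in LC, 7.20, 7.79 and 7.17 in MC and 4.10, 4.26 and 4.69 FPKM in HC (log2 difference 0.93 ± 0.10, adjusted p = 7.27e-05). TPX2, which builds the spindle, ranged over 2.08 to 2.92 in LC, 5.11 to 7.15 in MC and 3.71 to 4.27 FPKM in HC (log2 difference 0.73 ± 0.13, adjusted p = 0.0013). UBE2C, which helps mark mitotic proteins for degradation, ranged over 3.45 to 6.01 in LC, 8.16 to 12.1 in MC and 5.73 to 7.37 FPKM in HC (log2 difference 0.78 ± 0.16, adjusted p = 0.00355). PLK1, a mitotic kinase, ranged over 1.105 to 1.61 in LC, 2.47 to 3.30 in MC and 1.84 to 1.88 FPKM in HC (log2 difference 0.57 ± 0.12, adjusted p = 0.00408). Of this list 3 genes, with 1 peak, were left at a mean of at least 5 FPKM, so most of it lay where the pseudocount weighs most. The peaks of the list numbered 7 without MC2, 5 under median-of-ratios scaling and 4 under quantile normalization, and 10 genes were higher without MC1.

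Genes that restrain the cell cycle, with known p53 targets, gave more dips than peaks. BTG1, an antiproliferative gene, stood at 171, 146 and 158 in LC, 52.8, 42.5 and 31.5 in MC and 94.5, 99.9 and 99.1 FPKM in HC (log2 difference -1.57 ± 0.15, adjusted p = 3.23e-05). BBC3, the death-promoting p53 target also called PUMA, stood at 4.60, 7.54 and 6.23 in LC, 2.86, 1.19 and 0.883 in MC and 6.59, 10.1 and 6.33 FPKM in HC (log2 difference -1.62 ± 0.24, adjusted p = 8.36e-04), with MC1 above the other MC libraries and below all of LC and HC. CDKN1B, the inhibitor of cyclin-dependent kinases also called p27, ranged over 31.7 to 37.9 in LC, 22.3 to 23.3 in MC and 31.2 to 33.8 FPKM in HC (log2 difference -0.56 ± 0.10, adjusted p = 0.00154). MDM2, a target and negative regulator of p53, ranged over 14.99 to 15.3 in LC, 10.5 to 11.3 in MC and 14.1 to 16.3 FPKM in HC (log2 difference -0.45 ± 0.09, adjusted p = 0.00354). SESN1 and RRM2B, other p53 targets, were dips of -0.54 ± 0.12 and -0.55 ± 0.11 (adjusted p = 0.00619 and 0.00391). Of 22 tested members of cell cycle inhibitors and p53 targets 8 were lower, all of them dips, and 2 were higher, with a median of -0.16. CCND2, a cyclin of the list, was its 1 peak (log2 difference 0.55 ± 0.14, adjusted p = 0.0141), a call lost without MC1 (adjusted p = 0.0751), without MC2 (adjusted p = 0.0602) and with the smooth muscle covariate (adjusted p = 0.337). A pair of known p53 targets outside that list were among the peaks. AEN, a nuclease, stood at 1.62, 2.16 and 1.76 in LC, 6.55, 7.12 and 8.51 in MC and 2.29, 1.70 and 2.25 FPKM in HC (log2 difference 1.501 ± 0.12, adjusted p = 1.32e-05). TIGAR, which lowers fructose-2,6-bisphosphate, stood at 3.17, 3.97 and 3.23 in LC, 16.3, 13.8 and 17.97 in MC and 6.91, 5.15 and 5.62 FPKM in HC (log2 difference 1.62 ± 0.12, adjusted p = 8.13e-06). TP63, the p53 relative that maintains basal epithelial cells, was a small dip at 72.9 to 84.3 in LC, 56.9 to 67.6 in MC and 77.8 to 89.98 FPKM in HC (log2 difference -0.39 ± 0.11, adjusted p = 0.0208). It lost its call without MC1 (adjusted p = 0.0763), without MC2 (adjusted p = 0.112), with the smooth muscle covariate (adjusted p = 0.159) and when both single contrasts had to pass (adjusted p = 0.0535).

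Ligands and receptors of growth signalling were found in both directions. EREG and AREG, ligands of the EGF receptor, were peaks. EREG stood at 0.839, 0.515 and 0.392 in LC, 5.36, 4.07 and 4.95 in MC and 2.35, 1.18 and 2.08 FPKM in HC (log2 difference 1.45 ± 0.16, adjusted p = 7.37e-05). AREG stood at 1.94, 1.73 and 2.41 in LC, 11.7, 11.7 and 15.1 in MC and 9.12, 5.28 and 9.38 FPKM in HC (log2 difference 1.42 ± 0.16, adjusted p = 1.08e-04). Both were lowest in LC. Their HC minus LC differences were 0.85 ± 0.18 and 1.53 ± 0.19 (adjusted p = 0.00626 and 2.28e-04). HBEGF, another ligand, rose by 0.84 ± 0.20 (adjusted p = 0.0108), but not with the smooth muscle covariate (adjusted p = 0.156). ERBB2, a receptor of the same family, was a dip at 64.4, 84.2 and 85.7 in LC, 28.3, 30.6 and 37.4 in MC and 51.2, 61.5 and 54.5 FPKM in HC (log2 difference -1.02 ± 0.13, adjusted p = 2.66e-04), and so was FGFR2, a fibroblast growth factor receptor, at 16.4 to 19.97 in LC, 6.67 to 7.53 in MC and 10.7 to 12.7 FPKM in HC (log2 difference -0.95 ± 0.10, adjusted p = 6.73e-05). The binding proteins of insulin-like growth factors split. IGFBP6 was a peak at 18.999 to 24.2 in LC, 35.5 to 52.96 in MC and 9.98 to 15.9 FPKM in HC (log2 difference 1.33 ± 0.16, adjusted p = 1.44e-04). IGFBP5 was a dip at 20.1 to 30.97 in LC, 10.9 to 13.6 in MC and 28.4 to 40.98 FPKM in HC (log2 difference -1.22 ± 0.15, adjusted p = 2.09e-04). Of 28 tested growth factors and their receptors 5 were peaks and 3 dips. The dips numbered 7 without MC3 and 6 without HC1.

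Cell surface and transcription factor genes tied to growth were also among the extremes. TNFRSF12A, the receptor of the cytokine TWEAK, was the second largest peak among genes with a symbol, at 4.49, 3.18 and 2.50 in LC, 31.9, 24.8 and 26.04 in MC and 7.12, 11.04 and 9.70 FPKM in HC (log2 difference 2.10 ± 0.16, adjusted p = 9.34e-06). FOSL1, a subunit of the AP-1 transcription factor, was a peak at 0.0511, 0.17 and 0.241 in LC, 4.27, 3.02 and 3.90 in MC and 1.07, 1.39 and 1.08 FPKM in HC (log2 difference 1.57 ± 0.13, adjusted p = 1.50e-05), while its relative FOSL2 was a dip at 96.6 to 111 in LC, 50.1 to 61.1 in MC and 81.9 to 91.6 FPKM in HC (log2 difference -0.75 ± 0.11, adjusted p = 6.20e-04). Among 25 tested immediate early genes FOSL1 was the 1 peak, and 3 were dips (FOSL2, DUSP4 and IER3).

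Genes for sterol synthesis included peaks. SQLE, an enzyme of cholesterol synthesis, ranged over 16.3 to 22.9 in LC, 26.2 to 32.1 in MC and 10.8 to 15.3 FPKM in HC (log2 difference 0.91 ± 0.14, adjusted p = 6.92e-04). Of 25 tested members of cholesterol synthesis and SREBP2 targets 8 were higher, all of them peaks, and 1 was lower, with a median of 0.19.

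Targets of NRF2, the transcription factor of oxidant defence, lay in both directions. GCLC, the catalytic subunit that starts glutathione synthesis, was a peak at 6.18, 5.09 and 5.31 in LC, 15.6, 12.7 and 17.4 in MC and 5.35, 5.05 and 5.52 FPKM in HC (log2 difference 1.33 ± 0.11, adjusted p = 1.57e-05), while GCLM, the other subunit of that enzyme, was a dip at 34.2, 25.5 and 30.8 in LC, 22.2, 20.7 and 20.6 in MC and 47.4, 38.4 and 38.1 FPKM in HC (log2 difference -0.70 ± 0.12, adjusted p = 0.00126). NQO1, a quinone reductase, was a peak at 14.8, 24.3 and 29.4 in LC, 92.4, 82.8 and 86.3 in MC and 36.1, 33.9 and 35.02 FPKM in HC (log2 difference 1.61 ± 0.17, adjusted p = 6.34e-05). HMOX1, which breaks down haem, was a dip at 50.2, 46.2 and 35.8 in LC, 15.8, 12.1 and 16.8 in MC and 72.1, 60.3 and 97.7 FPKM in HC (log2 difference -1.89 ± 0.17, adjusted p = 2.06e-05). ALAS1, the first enzyme of haem synthesis, was a dip as well, at 78.9, 101 and 100.2 in LC, 37.8, 41.5 and 49.5 in MC and 84.2, 128 and 108 FPKM in HC (log2 difference -1.19 ± 0.15, adjusted p = 2.32e-04). Of 38 tested members of NRF2 targets and thioredoxin 7 were higher (5 peaks) and 4 lower (3 dips), with a median of 0.04. Their shares of 13.2% peaks and 7.9% dips lay near the 13.3% and 7.64% of all tested genes. The list as a group therefore did not stand out in either direction.

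Other large peaks came from varied functions. SERPINB11, of the serpin family, stood at 4.77, 5.87 and 6.15 in LC, 30.2, 29.2 and 33.8 in MC and 10.3, 5.99 and 13.1 FPKM in HC (log2 difference 1.96 ± 0.18, adjusted p = 3.87e-05). MFSD2A, a transporter of lysophospholipids, ranged over 0.55 to 0.946 in LC, 6.31 to 7.65 in MC and 1.03 to 2.07 FPKM in HC (log2 difference 1.95 ± 0.14, adjusted p = 8.13e-06). UPP1, which splits uridine, ranged over 6.95 to 10.6 in LC, 48.2 to 70.3 in MC and 27.7 to 45.4 FPKM in HC (log2 difference 1.66 ± 0.18, adjusted p = 7.48e-05). UPP1 in HC lay between LC and MC, with an HC minus LC difference of 1.88 ± 0.21. ATP8B2, a phospholipid flippase, ranged over 1.84 to 3.10 in LC, 9.06 to 11.3 in MC and 1.13 to 1.995 FPKM in HC (log2 difference 1.93 ± 0.15, adjusted p = 8.71e-06). PLEKHG6, a guanine nucleotide exchange factor, ranged over 2.19 to 3.67 in LC, 20.1 to 27.1 in MC and 10.1 to 10.8 FPKM in HC (log2 difference 1.83 ± 0.13, adjusted p = 8.13e-06). TPPP3, a tubulin-binding protein, ranged over 13.7 to 21.2 in LC, 42.6 to 47.3 in MC and 4.37 to 11.2 FPKM in HC (log2 difference 1.85 ± 0.25, adjusted p = 6.43e-04). FAM129C was close to 0 in LC and low in HC (0.0792 to 0.245 in LC, 2.32 to 3.73 in MC and 0.219 to 0.745 FPKM in HC; log2 difference 1.66 ± 0.16, adjusted p = 3.41e-05).

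Several of the largest dips were genes of the outer epithelium. KRT4, a keratin of the upper layers of non-cornified stratified epithelium (chromosome 5, 26374429 to 26381614), stood at 31.6, 60.1 and 69.8 in LC, 1.65, 2.18 and 2.25 in MC and 17.9, 16.1 and 29.2 FPKM in HC (log2 difference -3.47 ± 0.26, adjusted p = 2.35e-05). KLK12, a serine protease of the kallikrein family (chromosome 18, 55454385 to 55462554), stood at 54.5, 84.9 and 83.6 in LC, 6.12, 3.79 and 4.20 in MC and 43.4, 34.1 and 56.1 FPKM in HC (log2 difference -3.35 ± 0.20, adjusted p = 4.80e-06). Its neighbours were dips too: KLK13 (chromosome 18, 55467651 to 55481135) ranged over 1.40 to 1.89 in LC, 0.258 to 0.3 in MC and 0.674 to 1.52 FPKM in HC (log2 difference -0.88 ± 0.15, adjusted p = 0.00114), and KLK14 (chromosome 18, 55486312 to 55492130) over 4.31 to 6.55 in LC, 0.518 to 1.93 in MC and 12.3 to 19.9 FPKM in HC (log2 difference -2.14 ± 0.22, adjusted p = 1.04e-04). The order of the other diets differed between them, since KLK12 was higher in LC than in HC (-0.73 ± 0.23, adjusted p = 0.0366) and KLK14 was higher in HC (1.30 ± 0.26, adjusted p = 0.00531).

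ALOX12B, a lipoxygenase that prepares lipids of the outer barrier, stood at 2.41, 2.34 and 2.55 in LC, 0.249, 0.1998 and 0.349 in MC and 5.06, 5.96 and 8.68 FPKM in HC (log2 difference -1.997 ± 0.14, adjusted p = 8.13e-06). DNASE1L2, a nuclease of cornifying cells, ranged over 9.96 to 14.01 in LC, 4.22 to 5.52 in MC and 26.5 to 50.97 FPKM in HC (log2 difference -1.91 ± 0.19, adjusted p = 4.92e-05). CNFN, which encodes cornifelin, ranged over 27.6 to 54.6 in LC, 5.59 to 12.8 in MC and 18.7 to 28.6 FPKM in HC (log2 difference -1.61 ± 0.28, adjusted p = 0.00257). TGM1, the enzyme that cross-links the cornified envelope, was a peak instead, at 129, 180.3 and 167 in LC, 308, 299 and 400.3 in MC and 204, 153 and 242 FPKM in HC (log2 difference 0.92 ± 0.18, adjusted p = 0.00251), as was GRHL3, a transcription factor of the epithelial barrier, at 12.2 to 15.2 in LC, 20.8 to 29.1 in MC and 12.6 to 15.8 FPKM in HC (log2 difference 0.69 ± 0.13, adjusted p = 0.00241). Of 24 tested members of cornified and differentiated layer 5 were dips and 3 peaks, and the median of -0.12 ran from -0.34 to 0.11 over the alternatives, so the list as a group had no stable direction. Among 19 tested genes of the basal epithelial layer 1 was a peak and 1 a dip.

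GPNMB, a membrane glycoprotein known from macrophages, melanocytes and other cells (chromosome 4, 29668049 to 29695883), was the largest dip. It stood at 126, 152 and 219 in LC, 3.10, 2.77 and 2.58 in MC and 19.1, 15.7 and 19.2 FPKM in HC (log2 difference -3.86 ± 0.16, adjusted p = 1.78e-07). LC was highest and HC lay between (HC minus LC -3.10 ± 0.18). ARG1, the arginase of the urea cycle, had the same order at 98.3, 183 and 237 in LC, 14.1, 18.6 and 19.2 in MC and 27.1, 24.3 and 37.1 FPKM in HC (log2 difference -1.95 ± 0.25, adjusted p = 4.48e-04), with HC close to MC, and so did BBOX1, the last enzyme of carnitine synthesis, at 5.80 to 12.2 in LC, 0.399 to 0.746 in MC and 2.18 to 3.18 FPKM in HC (log2 difference -1.93 ± 0.21, adjusted p = 8.37e-05). FUT6, a fucosyltransferase, was ordered otherwise, with HC far above both other diets at 5.55, 5.47 and 4.12 in LC, 2.64, 1.92 and 1.96 in MC and 56.4, 30.9 and 54.5 FPKM in HC (log2 difference -2.41 ± 0.18, adjusted p = 1.18e-05). HMOX1 and DNASE1L2 shared that order, HC above LC above MC. When LC and HC were treated as 1 group of 6, FUT6 and ARG1 no longer passed (adjusted p = 0.0933 and 0.0994). Their HC minus LC differences were 2.96 ± 0.21 and -2.44 ± 0.29.

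**Figure D5:**
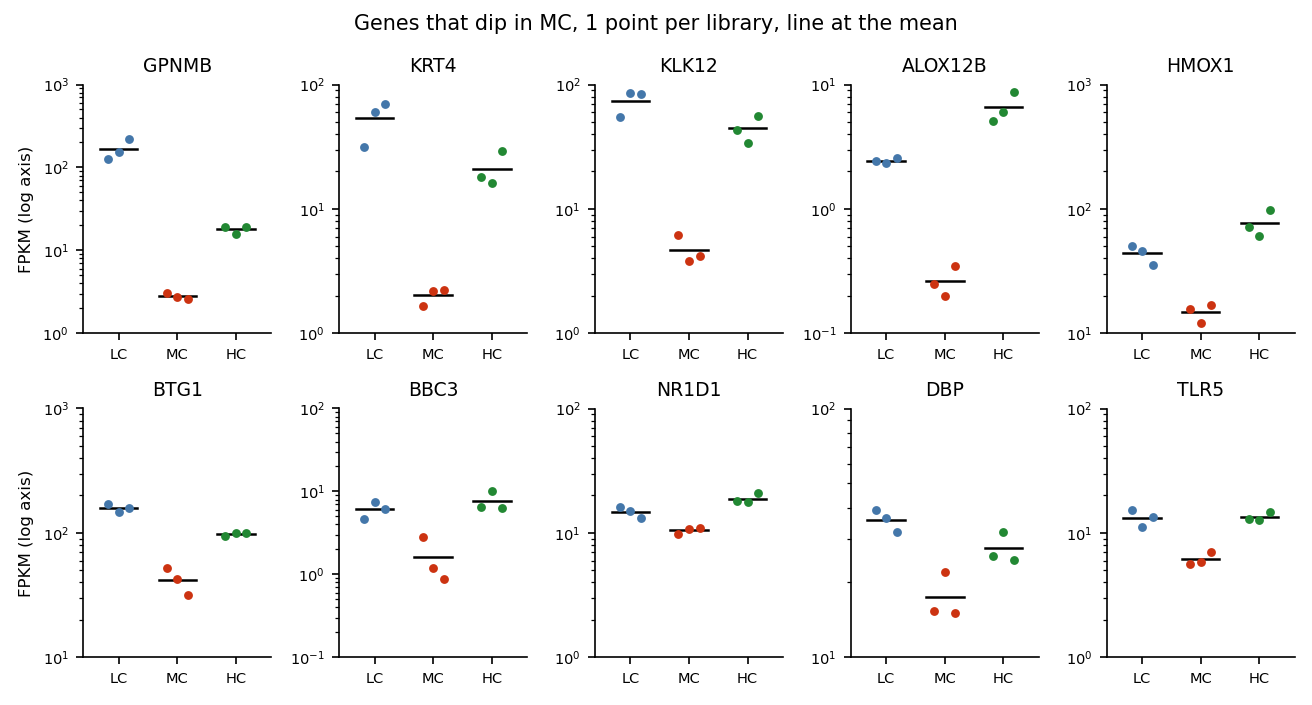
Each panel shows 1 gene that dips in MC with FPKM on a log axis, 1 point per library and a line at the mean of the 3 libraries of a diet. The MC points of each gene lie below all LC and HC points, while the order of LC and HC changes from gene to gene (LC above HC in GPNMB and KRT4, HC above LC in ALOX12B and HMOX1).

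Genes of the circadian clock, a loop of activators and repressors that drives daily rhythms, included 7 dips and 2 peaks among 21 tested members, with 10 lower and 3 higher past the test. CRY1, a repressor of the loop, was a peak at 1.17, 0.852 and 1.12 in LC, 4.44, 3.31 and 3.96 in MC and 1.096, 0.949 and 0.975 FPKM in HC (log2 difference 1.27 ± 0.12, adjusted p = 3.11e-05), and HC minus LC was -0.03 ± 0.14. NR1D1, a repressor of the second loop, was a dip at 16.3, 14.98 and 13.1 in LC, 9.84, 10.8 and 11.01 in MC and 18.1, 17.7 and 20.9 FPKM in HC (log2 difference -0.62 ± 0.10, adjusted p = 0.0012). DBP and TEF, output transcription factors of the clock, were dips. DBP ranged over 31.8 to 38.998 in LC, 15.03 to 22.1 in MC and 24.7 to 32.03 FPKM in HC (log2 difference -0.82 ± 0.14, adjusted p = 0.00139). TEF ranged over 34.1 to 35.5 in LC, 21.4 to 25.9 in MC and 29.7 to 35.4 FPKM in HC (log2 difference -0.50 ± 0.10, adjusted p = 0.00397). PER3, a period protein, stood at 1.82 to 2.35 in LC, 0.902 to 1.16 in MC and 1.45 to 1.88 FPKM in HC (log2 difference -0.50 ± 0.12, adjusted p = 0.00885). NR1D2, a relative of NR1D1, was lower in MC than in LC, with HC close above MC (11.2 to 13.6 in LC, 6.78 to 7.88 in MC and 7.997 to 9.34 FPKM in HC; log2 difference -0.46 ± 0.10, adjusted p = 0.00543). With the smooth muscle covariate the list had 4 dips, and NR1D2 did not pass (adjusted p = 0.0824). The labels do not give the hour at which tissue was taken, and its part in these values was not tested.

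Genes of bacterial and inflammatory signals included dips and peaks. TLR5, the receptor of bacterial flagellin, stood at 15.2, 11.1 and 13.5 in LC, 5.59, 5.82 and 7.08 in MC and 13.02, 12.8 and 14.9 FPKM in HC (log2 difference -1.01 ± 0.12, adjusted p = 1.19e-04). IL1R2, the decoy receptor of interleukin-1, stood at 135, 141 and 150.4 in LC, 91.2, 82.0 and 76.1 in MC and 159, 158 and 147 FPKM in HC (log2 difference -0.83 ± 0.11, adjusted p = 3.27e-04). CXCL17, a mucosal chemokine, stood at 41.3 to 91.3 in LC, 26.6 to 30.8 in MC and 52.7 to 61.1 FPKM in HC (log2 difference -1.04 ± 0.20, adjusted p = 0.00294). CCL5, a chemokine of T cells, was a dip with its highest level in LC, at 4.14 to 6.20 in LC, 0.102 to 0.764 in MC and 1.23 to 1.36 FPKM in HC (log2 difference -1.34 ± 0.17, adjusted p = 1.80e-04). IL17RC, a subunit of the interleukin-17 receptor, was a peak at 26.5 to 27.5 in LC, 37.8 to 47.7 in MC and 20.9 to 26.6 FPKM in HC (log2 difference 0.76 ± 0.11, adjusted p = 5.93e-04). Of 26 tested members of cytokines and chemokines 6 were dips (23.1%, against 7.64% of all tested genes) and 3 peaks (11.5%, against 13.3%). Of 34 tested members of Toll-like receptor and NF-kB 7 were peaks and TLR5 was the 1 dip, and there were 3 peaks without MC1. Interferon response (23 tested), antigen processing and presentation (14 tested) and epithelial host defence (14 tested) had 0 peaks and 1, 2 and 1 dips. In each of these lists 7 genes were lower in MC than the mean of LC and HC past the test (30.4%, 50% and 50%, against 13.1% of all tested genes). Higher past the test were 1, 0 and 2. A high LC level alone can make a gene lower here without MC lying below HC. MX1, of the interferon list, had means of 19.1 in LC, 1.95 in MC and 1.21 FPKM in HC. TAP1, of antigen processing, was a dip with means of 12.7, 2.98 and 5.56 FPKM. HC minus LC passed its test for 20, 11 and 12 of the tested members, with list medians of -0.96, -0.99 and -1.23.

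Macrophage genes were among the dips. C1QA and C1QB, subunits of the complement starter C1q made by macrophages, were dips. C1QA stood at 11.9, 14.8 and 9.68 in LC, 5.58, 5.22 and 2.146 in MC and 9.90, 7.90 and 13.6 FPKM in HC (log2 difference -1.26 ± 0.25, adjusted p = 0.00507). C1QB stood at 9.63, 11.8 and 7.74 in LC, 3.47, 4.81 and 1.79 in MC and 5.06, 7.33 and 7.33 FPKM in HC (log2 difference -1.097 ± 0.22, adjusted p = 0.00409). CSF1R, the growth factor receptor of macrophages, was a dip mainly through its high LC level, at 7.47, 6.57 and 5.39 in LC, 1.80, 2.17 and 2.17 in MC and 2.22, 2.44 and 2.40 FPKM in HC (log2 difference -0.71 ± 0.11, adjusted p = 9.05e-04), with MC minus HC missing its test (adjusted p = 0.456). Of the 10 tested macrophage and dendritic cell markers 8 were lower in MC, 5 were dips and 0 were higher, with a median of -0.77, and 3 of the 18 markers were not in the files. C3 and CFD, complement components not on any list, were dips as well. C3 ranged over 4.01 to 8.01 in LC, 0.242 to 0.619 in MC and 1.43 to 1.99 FPKM in HC (log2 difference -1.57 ± 0.18, adjusted p = 9.46e-05). CFD ranged over 4.58 to 6.46 in LC, 0.729 to 1.66 in MC and 2.93 to 4.04 FPKM in HC (log2 difference -1.27 ± 0.16, adjusted p = 1.75e-04). The part that macrophage number had in the dips of GPNMB, HMOX1 and complement was not tested.

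Transport and surface genes had members on both sides. KCNK1, a potassium channel, was a peak at 4.76, 4.78 and 4.68 in LC, 12.3, 10.01 and 10.9 in MC and 2.32, 2.19 and 2.999 FPKM in HC (log2 difference 1.43 ± 0.11, adjusted p = 8.71e-06). CLIC1, a chloride channel protein, stood at 83.6 to 139.6 in LC, 214 to 229.9 in MC and 115 to 134 FPKM in HC (log2 difference 0.92 ± 0.16, adjusted p = 0.00135). ATP1B1, a subunit of the sodium pump, was a dip at 12.2 to 14.2 in LC, 6.96 to 8.20 in MC and 17.6 to 19.6 FPKM in HC (log2 difference -1.01 ± 0.10, adjusted p = 3.87e-05), but it shares its locus with another gene. Of 20 tested genes of ion, urea, ammonia and water transport 5 were peaks and 1 a dip. No gene of short-chain fatty acid, bicarbonate and proton transport was a peak or a dip among 15 tested, although 2 were higher and 1 lower past the test. Of 18 tested genes of glucose, amino acid and peptide transport 3 were peaks and 2 dips.

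Energy metabolism gave few members. Of 36 tested nuclear respiratory chain genes 2 were peaks and 1 a dip, and the dips numbered 11 without LC1. The tricarboxylic acid cycle and entries (27 tested) had 2 peaks and 0 dips, glycolysis and lactate (20 tested) 0 and 1, ketogenesis and short-chain fatty acid activation (22 tested) 2 and 1, and fatty acid oxidation and PPAR targets (32 tested) 0 and 3. Fatty acid synthesis and lipid storage (21 tested) had 5 peaks and 3 dips, with 3 peaks without MC1 or without MC3. These shares lay near or below those of all tested genes, apart from the last. In xenobiotic and retinoid metabolism 5 of 26 were peaks and 5 dips. EPHX2, which opens lipid epoxides, was a peak at 5.03, 7.14 and 8.48 in LC, 30.5, 30.1 and 33.4 in MC and 12.8, 17.8 and 15.6 FPKM in HC (log2 difference 1.52 ± 0.15, adjusted p = 3.36e-05). The retinoid genes DHRS3, which reduces retinal, and RARG, a retinoic acid receptor, were dips. DHRS3 ranged over 22.8 to 30.8 in LC, 7.56 to 9.05 in MC and 11.95 to 17.1 FPKM in HC (log2 difference -1.16 ± 0.13, adjusted p = 9.36e-05). RARG ranged over 24.9 to 26.7 in LC, 10.6 to 13.1 in MC and 15.1 to 17.7 FPKM in HC (log2 difference -0.75 ± 0.10, adjusted p = 3.04e-04).

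For the remaining lists only counts are given. Peaks and dips numbered 2 and 0 of 7 SERPINB protease inhibitors, 3 and 0 of 24 tight junction genes, and 2 and 2 of 25 genes of the desmosome, adherens and gap junction. They numbered 2 and 4 of 26 genes of the amino acid response and ATF4 targets, 0 and 1 of 24 genes of apoptosis and pyroptosis, 1 and 3 of 42 lysosome genes, and 0 and 4 of 42 genes of extracellular matrix and remodelling. Among markers of other cells, fibroblast (9 tested), endothelium (11), T and NK cell (6), B and plasma cell (2), neutrophil (5), melanocyte (1), Schwann cell and neuron (1) and adipocyte (1) had 0 peaks and 0 dips, and skeletal muscle (2 tested) had 1 dip. Of the 6 T and NK cell markers 4 were lower and 1 was higher than the mean of LC and HC past the test. HC minus LC passed its test for all 6, with a median of -1.06. The 1 Schwann cell and neuron marker was lower past the MC test. No mast cell or erythrocyte marker was tested.

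Some members were nearly level between LC and HC. Among the peaks these included POP4, LTV1, HSPA5, AEN, GCLC, SRSF3, GNL3, CRY1 and GAR1, given above. The dips of this kind given here were on no list. SLC25A34, a mitochondrial carrier, stood at 25.7, 36.1 and 36.8 in LC, 9.96, 9.86 and 12.3 in MC and 25.2, 34.1 and 28.3 FPKM in HC (log2 difference -1.44 ± 0.14, adjusted p = 3.96e-05). TMED3, which sorts cargo leaving the endoplasmic reticulum, stood at 47.1, 59.2 and 59.1 in LC, 24.1, 23.9 and 20.7 in MC and 56.8, 60.8 and 57.4 FPKM in HC (log2 difference -1.27 ± 0.11, adjusted p = 2.00e-05). WNT10A, a Wnt ligand of skin and its appendages, stood at 13.1, 17.2 and 15.5 in LC, 5.47, 5.23 and 5.77 in MC and 12.6, 16.05 and 12.6 FPKM in HC (log2 difference -1.25 ± 0.11, adjusted p = 2.54e-05). THBS4, a matrix protein, ranged over 9.21 to 20.8 in LC, 3.54 to 6.16 in MC and 16.5 to 19.3 FPKM in HC (log2 difference -1.62 ± 0.24, adjusted p = 9.35e-04). Their HC minus LC differences were -0.16 ± 0.16, 0.09 ± 0.13, -0.14 ± 0.13 and 0.14 ± 0.27.

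The most abundant peaks included epithelial genes. S100A2, a calcium-binding protein of basal cells, stood at 581, 1267 and 1319 in LC, 1808, 2098 and 1891 in MC and 949, 1191 and 1019.8 FPKM in HC (log2 difference 0.92 ± 0.24, adjusted p = 0.0126). FABP5, a fatty acid-binding protein of keratinocytes, stood at 493, 757 and 846 in LC, 1713, 1843 and 1664 in MC and 865, 923 and 974 FPKM in HC (log2 difference 1.13 ± 0.17, adjusted p = 6.71e-04). SFN, the 14-3-3 protein of epithelia, ranged over 466 to 702 in LC, 983 to 1264 in MC and 533 to 763 FPKM in HC (log2 difference 0.74 ± 0.18, adjusted p = 0.0105). S100A2 lost its call without MC2 (adjusted p = 0.0614) and SFN without MC3 (adjusted p = 0.0592), while FABP5 kept it in every fit that left out 1 library. Among genes with a symbol and no other gene at their locus, the most abundant dips after RPL36 were SLC25A6 and TST, both mitochondrial. SLC25A6, which exchanges ADP and ATP across the inner membrane, ranged over 3576 to 5652 in LC, 2722 to 3528 in MC and 4257 to 7236 FPKM in HC (log2 difference -0.78 ± 0.21, adjusted p = 0.0161). TST, a sulfur transferase, ranged over 1599 to 2756 in LC, 1049 to 1187 in MC and 1641 to 2197 FPKM in HC (log2 difference -0.89 ± 0.19, adjusted p = 0.00497). SLC25A6 lost its call without MC1 (adjusted p = 0.0836) and without MC2 (adjusted p = 0.0685), and with the smooth muscle covariate neither it nor TST passed (adjusted p = 0.194 and 0.0942).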

How the data were processed

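RNA of 9 rumen epithelium libraries, 3 per diet, was analysed from the gene tables that the authors deposited. The deposited values are FPKM. The submitters' processing notes name Cufflinks 2.2.1 and Bowtie 1.2.0. For the genome build and the strand setting, nothing was given in the sources used here. Lines that had lost their gene name (18 to 21 per LC or MC library, 0 in HC) were left out. Gene positions are those of the deposited tables. Symbols were matched to a RefSeq gene table, with 16959 of 18383 named genes found (92.3%). No read counts were in these tables, so depth and counting error are unknown, and p-values measure the spread between these samples alone.

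Genes at 1 FPKM or more in at least 3 libraries and listed in all 9 were tested (11668), and 211 not listed everywhere were left out. Values were taken as log2(FPKM + 1) and fitted in limma 3.58.1 (R 4.3.3) with a mean-variance trend and robust moderation, on 6 residual degrees of freedom. P-values were adjusted by the Benjamini-Hochberg method over all genes tested. The fit was tested on simulated data with 200 changed genes of 11668: it recovered 9.5% of changes of 0.5, 86% of changes of 1 and 98.5% of changes of 2 on the log2 scale, and called 0, 10 and 14 unchanged genes. The simulated spread was independent between genes, and in the data 3622 genes passed. These rates therefore need not hold for the data. With the false negatives of the fit at small changes, a gene that did not pass is not shown to be level.

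Alternatives were other pseudocounts (0.1, 0.5, 5), level filters, scalings, moderation, array quality weights, thresholds, a smooth muscle marker covariate, LC and HC as 1 group, both single contrasts, a replicate block, each library left out, and, chosen after the data were seen, LC3 alone for LC. The members, the 42 pathway lists and the 13 marker lists were chosen with earlier results of these data known. Genes named were the 15 largest peaks and dips with a symbol and a mean of at least 1 FPKM, 10 per direction with LC and HC within 0.2, the 8 most abundant per direction with a difference of at least 0.5, up to 5 per list by adjusted p, and 4 epithelial markers, of which the text gives a part. Named outside that rule, after their values were seen, were C1QA, C3, CCND2, CFD, CNFN, CTH, DNAJB11, DUSP4, ERBB2, GCLM, HBEGF, HNRNPL, IER3, MTAP, MTR, ND4, ND4L, NOLC1, NR1D2, PER3, PSMD13, QARS, RRM2B, SAT1, SESN1, SRM, TGM1 and the genes given only by ID in the closing section.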

Additional observations from a re-analysis of the deposited data

How the results depend on the processing

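Under median-of-ratios scaling and quantile normalization 0 of the 2444 members took the other direction. The remaining alternatives compared the same library values, so a member could only stay or leave the set. The median of all genes ran from 0.00161 under median-of-ratios scaling to 0.0697 with the smooth muscle covariate, against 0.0489. Past the test, array quality weights gave 6092 genes (3272 higher, 2820 lower), an adjusted p under 0.01 gave 1877 (1086 and 791), LC and HC as 1 group gave 1892 (1179 and 713) and both single contrasts gave 1565 (979 and 586). With the covariate 969 genes were lower. Members numbered 1592 at an adjusted p under 0.01 (983 peaks) and 1518 with both single contrasts (957 peaks, 561 dips). Dips numbered 1369 under quantile normalization and 569 with the covariate. Members past HC minus LC, 511, numbered 331 at a mean of at least 5 FPKM, 1195 with array quality weights, 229 at an adjusted p under 0.01, 310 with the covariate, 293 with both single contrasts and 266 with LC3 alone for LC. Leaving out each library in turn gave 2255 to 4522 genes past the test (1293 to 2524 higher, 939 to 1998 lower), 1933 to 3079 members (1172 to 1901 peaks, 715 to 1178 dips) and 319 to 573 members past HC minus LC. AREG, UPP1, CCL5 and CSF1R did not pass with LC and HC as 1 group (adjusted p = 0.0576, 0.0668, 0.0535 and 0.165). The KRT5 log2 difference, which did not pass the test, changed sign with array quality weights (-0.056) and with LC3 alone for LC (-0.0021), and the KRT14 log2 difference did so with the covariate (0.063). The cause of these shifts was not tested. With the replicate block, 4393 genes passed, with 2550 members (1621 peaks and 929 dips) and 626 members past HC minus LC. The deviations of same-numbered libraries correlated at -0.076 to 0.504 over 9 pairs, and those of different numbers at -0.494 to 0.31 over 18. Not every same-numbered pair exceeded 0.1 (LC2 with MC2 0.079, LC3 with HC3 0.067, MC2 with HC2 -0.076) and the labels tie the numbers to nothing, so the fit without the block was kept, although all pairs numbered 1 lay at 0.29 to 0.45. Depth is unknown and sets no limit that can be given here.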

Other observations

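Several large members carry no symbol and are given here by their gene ID, chosen after their values were seen. LOC102180556, a protein-coding gene (chromosome 24, 61506932 to 61513919), was the second largest dip of all, at 112, 153 and 159 in LC, 17.3, 14.6 and 17.8 in MC and 302, 240.3 and 376 FPKM in HC (log2 difference -3.56 ± 0.16, adjusted p = 4.32e-07), with HC above LC. LOC102176340, a protein-coding gene (chromosome 13, 41798555 to 41815045), was the second largest peak, at 26.1, 72.1 and 76.5 in LC, 914, 922 and 862 in MC and 560.0, 539 and 539.5 FPKM in HC (log2 difference 2.39 ± 0.28, adjusted p = 2.33e-04). It did not pass with LC and HC as 1 group (adjusted p = 0.136) or when both single contrasts had to pass (adjusted p = 0.132). LOC106503869, a long non-coding RNA gene, was a dip at 2224, 2649.5 and 2604 in LC, 266, 265 and 214 in MC and 744, 481 and 525 FPKM in HC (log2 difference -2.27 ± 0.17, adjusted p = 8.13e-06), with LC highest. In all 149 peaks and 131 dips had no symbol, and 190 peaks and 102 dips overlapped the locus of another gene.

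Gene families read from the symbols showed runs of members. Peaks numbered 7 of 10 tested HSPA genes (heat shock proteins), 15 of 28 DDX genes (RNA helicases), 7 of 14 PSMD genes (proteasome regulatory subunits), 7 of 15 TRMT genes (transfer RNA methyltransferases), 6 of 13 PRPF genes (splicing), 5 of 12 TIMM genes (mitochondrial import) and 8 of 27 POLR genes (RNA polymerase subunits). Dips numbered 4 of 17 DUSP genes (phosphatases), 3 of 10 SEMA genes (semaphorins) and 4 of 19 NUDT genes (nucleotide hydrolases). Over all tested genes 13.3% were peaks and 7.64% dips. These families were picked after their counts were seen, and family members with similar sequence can share reads. Families not picked included DNAJB, LSM, KIF and NAA, with 36.4% to 40% peaks, above the 29.6% of POLR. RPL, with 44 tested, had 0 peaks. Several of the families overlap the lists given above.

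A gene missing from a library's table was left out of the test. There were 17 genes listed in all 6 LC and HC libraries and in no MC library. Among them were ND4 and ND4L, subunits of mitochondrial complex I. In the other 6 libraries ND4 was listed at 12079.6 to 15907.5 FPKM and ND4L at 9242 to 12383 FPKM. Both share a locus with another gene, so a missing line is not thereby shown to be a missing transcript. Why they were not listed in MC was not tested. Another 17 genes were listed in the 3 MC libraries alone, at 7.59 FPKM or below.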
